A study of Mus musculus with 6 samples.

Results

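The proteasome subunit genes were taken as the genes whose symbol is Psm, a letter from a to g and a number, measured by probe sets annotated with exactly 1 gene symbol. The rule found 48 of the 19938 genes of the array, and each was represented by its probe set of highest mean. Symbols with letters after the number, such as Psmc3ip of meiotic recombination, were left out. The series measured RNA of thymic medullary epithelial cells, which were sorted for high MHC class II and intermediate Ly51 among cells without CD45. Of its 6 mice, aged 4 to 6 weeks, 3 were Aire-/- (labelled Aire KO) and 3 were Aire wild type (Aire WT). All were (B6xNOD)F1 animals, and each gave its own array, so SDs are spreads between mice. RNA was amplified in 2 rounds before labelling. Which part of Aire was removed is not stated.

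The proteasome is the large protease that degrades proteins tagged with ubiquitin. Its barrel-shaped core has outer rings of alpha subunits, which control entry, and inner rings of beta subunits, a few of which cut peptide bonds. A regulatory cap recognises ubiquitin, removes it and uses ATPases to unfold the protein and push it into the core. Interferon-gamma makes cells exchange the catalytic subunits for those of the immunoproteasome, which changes the peptides available for MHC class I. Cortical epithelial cells of the thymus carry a further catalytic subunit, Psmb11, which defines the thymoproteasome and is needed for normal selection of CD8+ T cells. Medullary cells present self peptides to thymocytes, and the proteasome supplies those of MHC class I.

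Values are log2 intensities made from the authors' normalized signal. A difference is the Aire KO mean minus the Aire WT mean, and a positive one means higher in Aire KO. Genes were tested with limma over 13925 genes bright enough on at least 3 arrays, adjusted by Benjamini-Hochberg at 0.05, and "rose", "fell" and "called" are used only of genes past it. Each SE is that of the limma fit, which draws the variance of a gene toward a value shared by all tested genes. It is therefore not set by the spread of that gene between mice alone. Of the 48 subunit genes 46 were tested, and 45 of these passed the brightness filter on all 6 arrays. Levels of different genes are not compared, since each probe set has its own brightness.

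The arrays had medians of 92.9 to 98.2 on the linear scale. Log2 intensities of arrays correlated across probe sets at 0.990 to 0.993 within a genotype and at 0.976 to 0.985 between genotypes. Aire's own probe set lay at 12.38, 12.41 and 12.42 in Aire KO mice and at 12.00, 11.92 and 11.99 in Aire WT mice, so it does not check the labels. The epithelial marker Epcam averaged 10.73 ± 0.14 in Aire KO mice and 11.10 ± 0.14 in Aire WT mice (SD, n = 3 each), and fell by 0.37 (limma adjusted p = 0.021). Of 9 medullary epithelial genes, all tested, Aire's probe set rose, 3 fell (Epcam and the keratin genes Krt5 by 0.84 and Krt14 by 0.44) and 5 were not called. By comparison, 12.0% of all tested genes rose and 14.1% fell. The summed intensity of the 9 ran from 30768 to 32757 in Aire KO mice, against 30594 to 31512 in Aire WT mice. Bright probe sets weigh most in this sum, above all H2-Aa, at a mean of 13.63 in Aire KO mice and 13.43 in Aire WT mice. The sum includes Aire's own probe set and says little about the 3 genes that fell. All 10 leukocyte markers measured had negative differences, with a median of -0.45 over the 8 tested. Of 8 tested, 3 fell (Ptprc, Cd3g and Itgam), against 14.1% of all tested genes. Itgam was above the brightness filter only in Aire WT mice. The other 5 were not called and had overlapping groups, with differences from -0.50 for Rag1 to -0.012 for Cd3e. The summed intensity of the 10 measured ran from 714 to 1014 in Aire KO mice, against 1093 to 1876 in Aire WT mice. Aire WT replicate 3 held that highest sum, with the T cell receptor component gene Cd3g at 9.32, against 8.18 and 8.04 in the other Aire WT mice. Ptprc, which encodes CD45, the antigen the sort was to exclude, lay between 6.16 and 6.72 in Aire KO mice and between 6.85 and 7.49 in Aire WT mice. The part of these shifts in the results below was not tested. In such bulk samples fewer cells of a type and less RNA per cell cannot be told apart.

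Proteasome genes differed little between the genotypes. Differences ran from -0.30 to 0.31, or 0.815-fold to 1.24-fold, with a median of 0.043, against 0.015 over all tested genes. Of the 46 tested, 5 rose (Psmb1, Psmb2, Psmb3, Psmb9 and Psmb10), 1 fell (Psmd1) and 40 were not called. Over all tested genes 12.0% rose and 14.1% fell. The share of subunit genes that rose was near the background, and the share that fell was below it. At an unadjusted p below 0.05 the counts were 9 higher and 4 lower, against 19.2% and 19.4% of all tested genes. The 5 genes that rose all encode beta subunits of the core, and the 1 that fell encodes a subunit of the cap. In the plot of all members the tested beta subunits lie above 0 and most cap subunits lie near or below it.

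**Figure D1:**
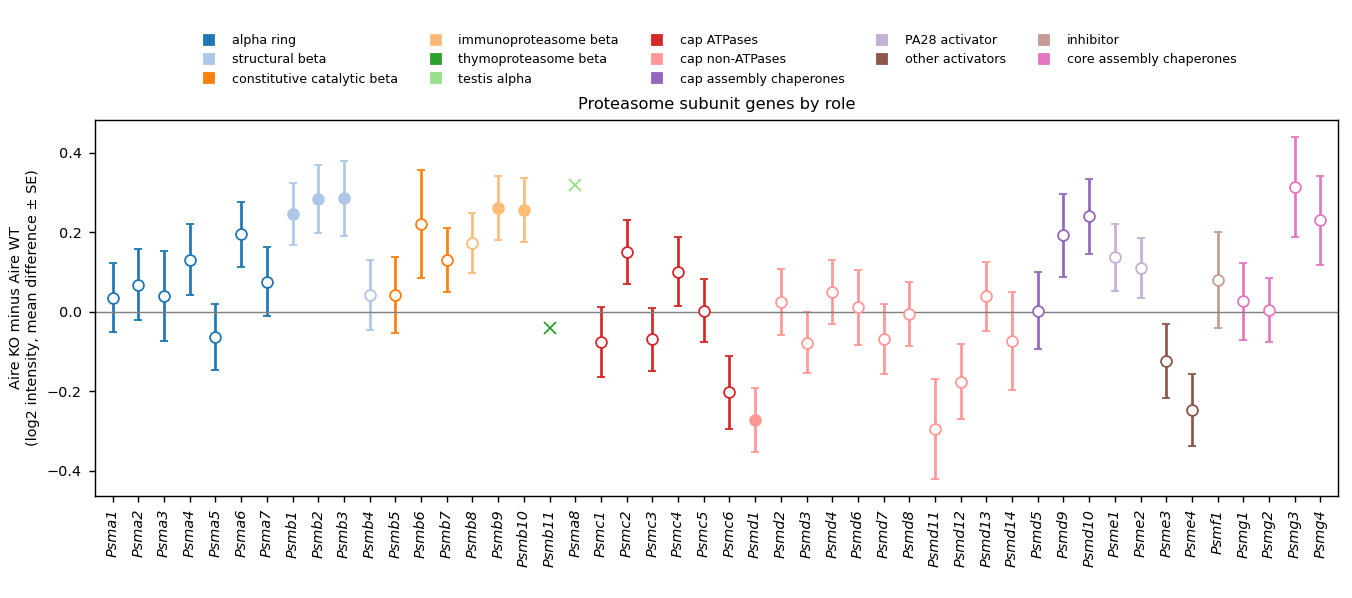
Difference in log2 intensity between Aire KO and Aire WT for each of the 48 genes, grouped and coloured by role, with bars for the SE of the limma fit. Filled circles passed the test, open circles did not, and crosses are the 2 genes below the brightness filter; the 5 filled circles above 0 are all beta subunits, and Psmd1 is the only filled one below 0.

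The beta subunits with structural roles held 3 of the 5 rises. Psmb1, a beta subunit without catalytic activity, lay at 9.66, 9.65 and 9.66 in Aire KO mice and at 9.47, 9.42 and 9.34 in Aire WT mice. Every Aire KO mouse was above every Aire WT mouse, and Psmb1 rose by 0.25 (SE 0.08, 1.19-fold, limma adjusted p = 0.040). Psmb2, another such subunit, lay at 9.22, 9.13 and 9.31 in Aire KO mice and at 8.87, 9.01 and 8.92 in Aire WT mice. The groups did not overlap, and the rise was 0.28 (SE 0.08, 1.22-fold, limma adjusted p = 0.030). Psmb3 lay at 10.58, 10.39 and 10.54 in Aire KO mice and at 10.20, 10.36 and 10.10 in Aire WT mice. Its groups were separated only narrowly, between Aire KO replicate 2 and Aire WT replicate 2, and the rise was 0.28 (SE 0.09, limma adjusted p = 0.047). A second Psmb3 probe set gave 9.98, 10.05 and 10.02 in Aire KO mice and 10.02, 10.00 and 9.94 in Aire WT mice, a difference of 0.033 (limma adjusted p = 0.78), so the 2 probe sets of this gene disagreed. Psmb4, the last of the structural beta subunits, was at 0.043 and not called, and the median of the 4 genes was 0.26.

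These calls were near the threshold, and each was lost when some single mouse was left out. Psmb1 was not called without any 1 of the 6 arrays (limma adjusted p from 0.058 to 0.11, difference 0.21 to 0.28). Psmb2 lost its call without Aire KO replicate 1 (0.085) or 3 (0.12) and without Aire WT replicate 1 (0.097) or 3 (0.051). Psmb3 lost its call without Aire KO replicate 1 (0.16) or 3 (0.13) and without Aire WT replicate 1 (0.11) or 3 (0.11). The number of proteasome genes that rose was 0 without Aire KO replicate 1 or 3, 1 without Aire WT replicate 1 or 3, 3 without Aire WT replicate 2 and 4 without Aire KO replicate 2. Where limma called 0 higher, without Aire KO replicate 1 or 3, 6 subunit genes were higher at an unadjusted p below 0.05 in each fit, against 15.6% and 16.6% of all tested genes. The 6 called genes kept their sign whichever array was left out.

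**Figure D2:**
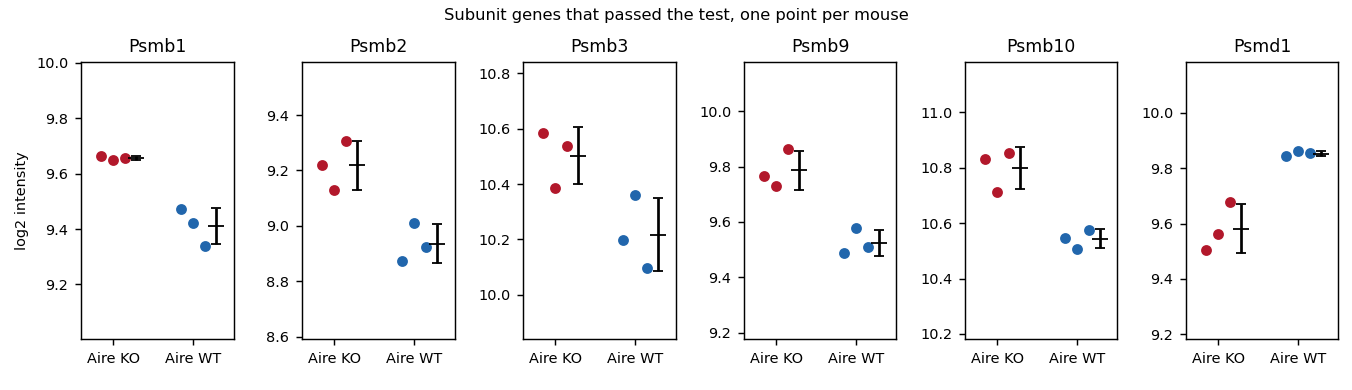
Log2 intensity of the 6 genes that passed the test, in Aire KO mice on the left of each panel and Aire WT mice on the right, with 1 point per mouse and the mean ± SD as a bar. Every panel spans the same range on the log2 scale, and in each the groups do not overlap, with the narrowest gap for Psmb3.

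The 3 immunoproteasome subunits were all higher in every Aire KO mouse than in any Aire WT mouse, and 2 of them rose. Over all tested genes 22.0% had all Aire KO arrays above all Aire WT arrays. Psmb9, which takes the place of Psmb6 after interferon, lay at 9.77, 9.73 and 9.86 in Aire KO mice and at 9.49, 9.58 and 9.51 in Aire WT mice. It rose by 0.26 (SE 0.08, 1.20-fold, limma adjusted p = 0.035). Psmb10, which replaces Psmb7, lay at 10.83, 10.71 and 10.85 in Aire KO mice and at 10.55, 10.51 and 10.58 in Aire WT mice. It rose by 0.25 (SE 0.08, 1.19-fold, limma adjusted p = 0.038). Psmb8, which replaces Psmb5, lay at 10.00, 9.99 and 10.04 in Aire KO mice and at 9.86, 9.83 and 9.82 in Aire WT mice, with the smallest spread of the 3. Its difference of 0.17 (SE 0.08) was not called (limma adjusted p = 0.12). Psmb9 lost its call without Aire KO replicate 1 (0.084) or 3 (0.13) and without Aire WT replicate 1 (0.10), 2 (0.052) or 3 (0.054). Psmb10 lost its call without Aire KO replicate 1 (0.12) or 3 (0.13) and without Aire WT replicate 1 (0.085) or 2 (0.10).

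None of the constitutive catalytic subunits was called. Psmb5, the chymotrypsin-like subunit, lay at 8.57, 8.39 and 8.66 in Aire KO mice and at 8.44, 8.62 and 8.43 in Aire WT mice, and the groups overlapped (0.042, SE 0.10). Psmb7, the trypsin-like subunit, was higher in every Aire KO mouse, at 10.86, 10.76 and 10.85 against 10.74, 10.70 and 10.64 in Aire WT mice, without passing the test (0.13, SE 0.08, limma adjusted p = 0.25). Psmb6, the caspase-like subunit, lay at 10.03, 9.87 and 10.06 in Aire KO mice and at 9.90, 9.99 and 9.41 in Aire WT mice. The low value of Aire WT replicate 3 set most of its difference of 0.22, which was 0.041 without that array. The median of the 3 genes was 0.13 with all arrays and 0.041 without Aire WT replicate 3, the array with the highest leukocyte markers.

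Whether the immunoproteasome subunits moved more than the subunits they replace was examined within each array, as the difference in log2 intensity between the exchanged genes. Only the change of this difference between genotypes can be read, not its level. Psmb10 minus Psmb7 was -0.035, -0.044 and 0.006 in Aire KO mice and -0.19, -0.19 and -0.067 in Aire WT mice. The groups did not overlap, and the difference changed by 0.12 (exact permutation test, two-sided, p = 0.10, adjusted p = 0.40 over the 4 pairs compared), where 0.10 is the smallest p that 3 mice against 3 allow. Psmb8 minus Psmb5 averaged 1.47 ± 0.11 in Aire KO mice and 1.34 ± 0.11 in Aire WT mice (SD, n = 3 each), a change of 0.13 with overlapping groups (exact permutation p = 0.30, adjusted p = 0.60). Psmb9 minus Psmb6 averaged -0.20 ± 0.06 in Aire KO mice and -0.24 ± 0.30 in Aire WT mice (SD, n = 3 each), with a change of 0.040 (exact permutation p = 1, adjusted p = 1). That change was 0.21 without Aire WT replicate 3, whose Psmb6 value is low, -0.045 without Aire WT replicate 1 and -0.046 without Aire WT replicate 2. Psmb11 minus Psmb5, the exchange of the thymoproteasome, changed by -0.082 with overlapping groups (exact permutation p = 0.50, adjusted p = 0.67), and its Psmb11 values are below the brightness filter. With 3 mice against 3 this test could not pass 0.05 whatever the values, so it does not say whether the exchanged genes moved unequally.

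**Figure D3:**
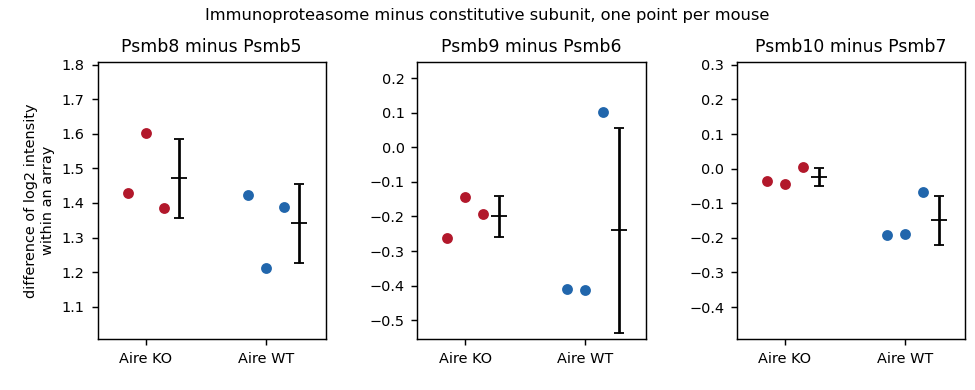
Within-array difference in log2 intensity between each immunoproteasome subunit and the subunit it replaces, with 1 point per mouse, Aire KO on the left and Aire WT on the right, and the mean ± SD as a bar. Aire KO and Aire WT points are separate only for Psmb10 minus Psmb7, and 1 Aire WT mouse stands apart for Psmb9 minus Psmb6.

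Psmb11, the thymoproteasome subunit, lay below the brightness filter of 5.97 on every array. Its values were 5.54, 5.58 and 5.59 in Aire KO mice and 5.56, 5.60 and 5.67 in Aire WT mice, with overlapping groups and no test. Other genes of cortical epithelium were not uniformly dim: Prss16, a serine protease of cortical cells, averaged 8.05 ± 0.15 in Aire KO mice and 7.69 ± 0.08 in Aire WT mice (SD, n = 3 each) and rose by 0.36 (limma adjusted p = 0.018). Of 8 tested cortical genes 3 rose (Prss16, Ccl25 and Tbata), 2 fell (Enpep, which encodes Ly51, and Ctsl) and 3 were not called. Among all tested genes 12.0% rose and 14.1% fell. Ly51 was also an antigen on which the cells were sorted. The summed intensity of the 9 measured ran from 15386 to 16366 in Aire KO mice and from 13951 to 14583 in Aire WT mice. Bright probe sets weigh most in this sum too, above all Krt8, at a mean of 12.95 in Aire KO mice and 12.85 in Aire WT mice. Krt8 was not called, and next in brightness are Ccl25 and Tbata, which rose. The sum therefore says little about the 2 genes that fell. Psma8, the alpha subunit of testis proteasomes, was also under the filter on all arrays, at 5.05, 4.94 and 5.17 in Aire KO mice and 4.82, 4.86 and 4.51 in Aire WT mice, and was not tested.

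Psmb9 lies in the MHC region beside Tap1, a subunit of the peptide transporter, and the 2 genes start 226 bases apart on opposite strands of chromosome 17 in GRCm38.p6. The stretch they share is shown because both genes are read from it in opposite directions. It is given in the direction of Psmb9 as the 250 bases before its start (chr17:34187331-34187580, minus strand, RefSeq), and the capitals mark the 25 bases that lie inside Tap1.
Psmb9: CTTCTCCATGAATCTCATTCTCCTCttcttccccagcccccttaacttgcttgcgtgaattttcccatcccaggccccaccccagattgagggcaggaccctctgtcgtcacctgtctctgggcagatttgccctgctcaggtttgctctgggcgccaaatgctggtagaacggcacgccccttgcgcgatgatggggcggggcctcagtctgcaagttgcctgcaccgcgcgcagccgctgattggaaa
Tap1 lay at 9.69, 9.69 and 9.78 in Aire KO mice and at 9.82, 9.88 and 10.02 in Aire WT mice. Every Aire KO mouse was below every Aire WT mouse for Tap1, and above for Psmb9. The Tap1 difference of -0.19 (SE 0.09) was not called (limma adjusted p = 0.13), and the contrast between the 2 genes was not tested. Over all tested genes 20.5% had all Aire KO arrays below all Aire WT arrays. Tap2, the partner subunit next to Psmb8, stood at 0.13 and was not called.

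Other genes that interferon induces or that load class I moved in both directions. Of 16 tested, 2 rose, 6 fell and 8 were not called, with a median of -0.093. Over all tested genes 12.0% rose and 14.1% fell. Ido1, a tryptophan-degrading enzyme, averaged 5.70 ± 0.09 in Aire KO mice and 7.27 ± 0.17 in Aire WT mice (SD, n = 3 each), and fell by 1.58. It lay below the brightness filter in every Aire KO mouse and entered the test through its Aire WT arrays alone. Its call is therefore not independent of the filter. Gbp3, a guanylate-binding protein gene, fell by 1.17 and the chemokine gene Cxcl9 by 0.92. Nlrc5, the transactivator of class I genes and of Psmb9, fell by 0.34 (9.70, 9.83 and 9.63 in Aire KO mice, 9.98, 10.11 and 10.09 in Aire WT mice, limma adjusted p = 0.014). The interferon-gamma receptor chain gene Ifngr2 fell by 0.31 and the peptide-trimming enzyme gene Erap1 by 0.30. Irf8, a transcription factor, rose by 0.75, and Socs1, a feedback inhibitor of cytokine signalling, rose by 0.32. Irf1, a factor that drives immunoproteasome genes, was at -0.064 and was not called. The 2 genes of the PA28 activator, which opens the core and is itself induced by interferon-gamma, were not called. Psme2 lay at 11.27, 11.25 and 11.24 in Aire KO mice and at 11.12, 11.14 and 11.18 in Aire WT mice, without overlap (0.11, SE 0.08, limma adjusted p = 0.31), and Psme1 differed by 0.14 (SE 0.08) with overlapping groups.

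**Figure D4:**
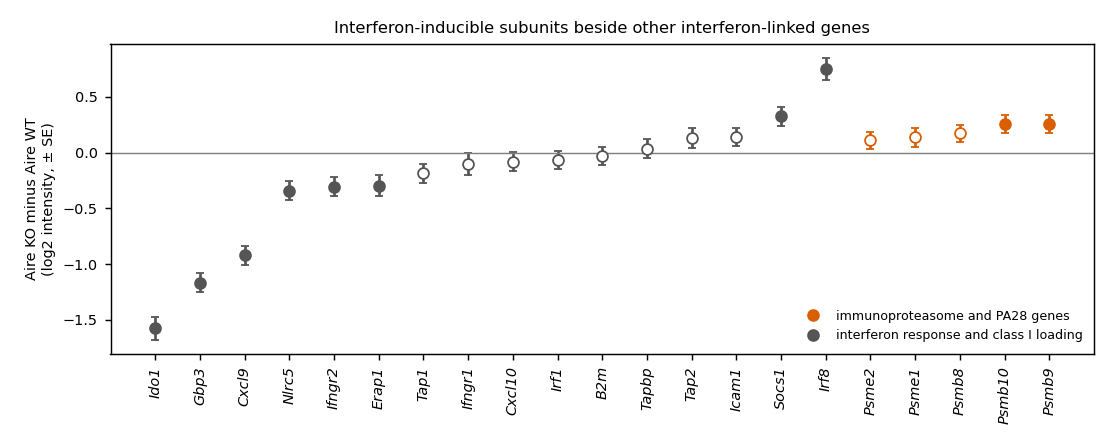
Difference in log2 intensity between Aire KO and Aire WT with the SE of the limma fit, for 16 genes of interferon response and class I loading (grey) and 5 immunoproteasome and PA28 genes (orange). Filled circles passed the test. The grey genes run from Ido1 at -1.58, which passed the brightness filter only in Aire WT mice, to Irf8 at 0.75. The orange genes lie between 0.11 and 0.26.

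The alpha subunits were not called in any case. Of the 7, 6 had positive differences and 1 negative, from -0.063 for Psma5 to 0.20 for Psma6, with a median of 0.067. Psma6 lay at 11.00, 10.85 and 10.98 in Aire KO mice and at 10.71, 10.74 and 10.80 in Aire WT mice, with no overlap but without passing the test (SE 0.08, limma adjusted p = 0.10). Psma4 was also higher in every Aire KO mouse, at 10.60, 10.63 and 10.61 against 10.58, 10.55 and 10.32 in Aire WT mice, a difference of 0.13 (SE 0.09) that was 0.050 without Aire WT replicate 3. Psma3 has 3 probe sets, with differences of 0.0056, 0.040 and 0.051, and Psma5 has 2, at -0.063 and -0.026. Psma1, Psma2 and Psma7 lay between 0.035 and 0.075. The alpha median was 0.018 without Aire WT replicate 3, which held the lowest value of Psma1, Psma2, Psma3, Psma4 and Psma7.

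The factors that assemble the core were likewise not called. Psmg1 and Psmg2, partners in 1 chaperone that builds the alpha ring, were at 0.026 and 0.0039. Psmg3 and Psmg4, partners in another, were at 0.31 (SE 0.13) and 0.23 (SE 0.11). Psmg3 lay close to the brightness filter, at 6.42, 6.54 and 6.34 in Aire KO mice and 6.43, 6.03 and 5.90 in Aire WT mice, and Aire WT replicate 3 lay under the filter. It was called without Aire WT replicate 1 (0.47, limma adjusted p = 0.0083), and Psmg4 without Aire WT replicate 2 (0.33, 0.049). Without Aire WT replicate 3 the differences were 0.20 for Psmg3 and 0.10 for Psmg4. Pomp, the maturation factor of the beta rings, lay at 10.63, 10.47 and 10.75 in Aire KO mice and at 10.52, 10.45 and 10.11 in Aire WT mice, and was not called (0.26, SE 0.12, limma adjusted p = 0.13). Aire WT replicate 3 was lowest for Psmg3, Psmg4 and Pomp.

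The cap held the 1 fall. Psmd1, the large scaffold of the cap base, lay at 9.50, 9.56 and 9.68 in Aire KO mice and at 9.84, 9.86 and 9.85 in Aire WT mice. All Aire KO mice were lower, and the fall was 0.27 on the log2 scale (difference -0.27, SE 0.08, 0.828-fold, limma adjusted p = 0.030). It lost its call without Aire KO replicate 1 (0.12) or 2 (0.072) and without Aire WT replicate 1 (0.068) or 2 (0.074). Psmd11, which clamps the cap to the core, had the most negative difference of the cap, -0.30 (SE 0.13), without a call (limma adjusted p = 0.11). Its values were 9.92, 10.18 and 9.97 in Aire KO mice and 10.20, 10.14 and 10.62 in Aire WT mice, so Aire WT replicate 3 stood high and the groups overlapped. Without that array the difference was -0.15. Psmd12, a lid subunit, was at -0.18 (SE 0.09) and not called. Psmd2, which docks ubiquitin shuttles, the ubiquitin receptor Psmd4 and Psmd14, the deubiquitinase of the lid, were at 0.025, 0.051 and -0.073. The other non-ATPase subunits, Psmd3, Psmd6, Psmd7, Psmd8 and Psmd13, lay between -0.077 and 0.039. The median of the 11 non-ATPase genes was -0.068. It was -0.0052 without Aire KO replicate 1, -0.023 without Aire KO replicate 2 and -0.0077 without Aire WT replicate 2.

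None of the 6 ATPase genes of the cap was called, and 3 had positive and 3 negative differences, with a median of -0.033. Psmc6 was lower in every Aire KO mouse, at 9.66, 9.81 and 9.60 against 10.01, 9.84 and 9.82 in Aire WT mice (-0.20, SE 0.09, limma adjusted p = 0.12). Psmc2 was higher in every Aire KO mouse, at 10.07, 10.12 and 10.09 against 10.01, 9.95 and 9.88 in Aire WT mice (0.15, SE 0.08, limma adjusted p = 0.19). Psmc4 was at 0.10, Psmc5 at 0.0023, Psmc3 at -0.069 and Psmc1 at -0.075, with a second Psmc1 probe set at -0.20. The chaperones that assemble this ring were at 0.24 for Psmd10 (gankyrin), 0.19 for Psmd9 and 0.0027 for Psmd5, and none was called. Psmd10 lay at 9.76, 9.71 and 9.96 in Aire KO mice and at 9.67, 9.56 and 9.48 in Aire WT mice, without overlap (SE 0.09, limma adjusted p = 0.081).

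Across the core without exchanged or tissue-restricted subunits, 13 of 14 genes had positive differences, 3 rose and 11 were not called, with a median of 0.10. Across the 17 cap subunits, 7 had positive and 10 negative differences, 1 fell and 16 were not called, with a median of -0.068. The median of the core was 0.046 without Aire WT replicate 3, and that of the cap was -0.0052 without Aire KO replicate 1, -0.023 without Aire KO replicate 2, -0.018 without Aire WT replicate 1 and -0.0077 without Aire WT replicate 2. These counts describe the members, and the difference between core and cap was not tested. The class medians of the immunoproteasome, structural beta and PA28 genes were above 0 in all 3 Aire KO mice and below 0 in all 3 Aire WT mice. For the cap ATPases and non-ATPases the mice of both genotypes were mixed.

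**Figure D5:**
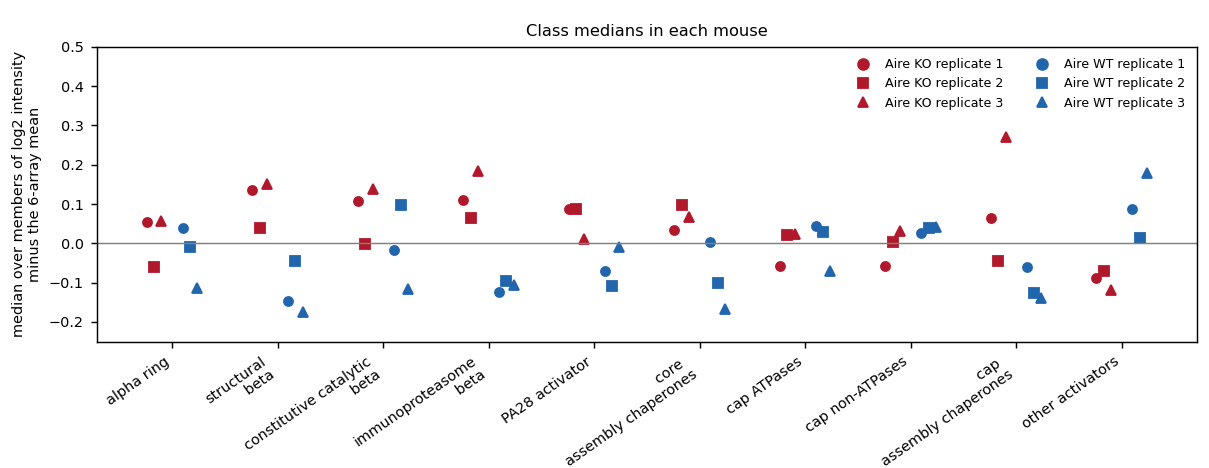
Median over the genes of each class of log2 intensity minus each gene's mean over the 6 arrays, with 1 symbol per mouse, Aire KO left of Aire WT within each class. For structural beta, immunoproteasome, PA28, both kinds of assembly chaperones and other activators the genotypes do not overlap, while for the alpha ring, the constitutive catalytic beta genes and the cap ATPases and non-ATPases they do.

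Regulators outside the cap differed in sign. Psme4, which encodes the activator PA200 known from histone degradation in spermatogenesis, lay at 8.75, 8.92 and 8.73 in Aire KO mice and at 9.14, 8.95 and 9.05 in Aire WT mice. Its groups did not overlap, narrowly, and the difference of -0.25 (SE 0.09) was not called (limma adjusted p = 0.064). It was called without Aire KO replicate 2 (-0.31, 0.043). Psme3, the nuclear member of the PA28 family, was at -0.12 (SE 0.09), and Psmf1, an inhibitor of the core in vitro, at 0.079 (SE 0.12). Among all 46 tested genes, 12 had every Aire KO mouse above every Aire WT mouse and 4 had every Aire KO mouse below, against 22.0% and 20.5% of all tested genes.

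The neighbouring parts of the pathway gave 1 call. Of 26 genes listed for assembly, ubiquitin shuttling and control of proteasome genes, 17 were measured. Of these 17, 1 fell and 16 were not called, with a median of -0.054. For all tested genes the shares were 12.0% that rose and 14.1% that fell. Zfand5, a proteasome activator known from muscle wasting, lay at 9.60, 9.75 and 9.75 in Aire KO mice and at 10.16, 10.11 and 9.99 in Aire WT mice and fell by 0.39 (limma adjusted p = 0.0075). Nfe2l1, the transcription factor that raises proteasome genes when proteasome activity is short, was at 0.044 (SE 0.08) and not called. The other genes of this list ran from -0.18 to 0.26. Adrm1 was not analysed here.

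Promoter windows of RefSeq (GRCm38.p6, 250 bases before to 50 after a gene start) were matched for 40 of the 48 genes, in 43 windows. The interferon-stimulated response element, searched as GAAANNGAAA on both strands, stood in 5 of them (11.6%), against 3.44% of all 32851 windows. Short stretches of those 5 are shown, in the direction of the gene and with the match in capitals, because 1 of them, Psmb3, is among the genes that rose.
Psmb3 (chr11:97703261-97703290, plus strand): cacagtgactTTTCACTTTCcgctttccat
Psmd4 (chr3:95042675-95042704, minus strand): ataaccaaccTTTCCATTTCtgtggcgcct
Psmd9 (chr5:123228021-123228050, plus strand): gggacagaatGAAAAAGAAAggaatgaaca
Psme1 (chr14:55578493-55578522, plus strand): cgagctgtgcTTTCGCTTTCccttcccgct
Psmg4 (chr13:34162969-34162998, plus strand): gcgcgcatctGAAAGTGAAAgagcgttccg
The differences of these genes were 0.28 for Psmb3, 0.051 for Psmd4, 0.19 for Psmd9, 0.14 for Psme1 and 0.23 for Psmg4, and only Psmb3 was called. A second Psmb3 probe set stood at 0.033 and was not called. The windows of Psmb8, Psmb9 and Psmb10 hold no such letters. The gamma-activated site, searched as TTCNNNGAA, stood in 3 member windows (6.98%), against 8.30% of all windows, and 1 of the 3 is that of Psmb8. The antioxidant response element bound by Nfe2l1 and Nfe2l2, searched as TGACNNNGC on both strands, stood in 6 member windows (14.0%), against 12.4% of all. Those 6 belong to Psmb5, Psmb6, Psmc6, Psmd9, Psmd12 and Psme4, none of which was called. The Psmd9 window holds 2 of these motifs, which do not overlap.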

How the data were processed

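The deposited values are probe set intensities on the linear scale, made by the authors with RMA per the submitters' processing notes. RMA compresses the differences of dim genes. Its version is not given in the sources used here, nor is a genome build. Of 35512 probe sets 21789 carry 1 symbol. The log2 was taken with a pseudocount of 0, and the 1-symbol probe set with the highest mean stood for its gene. Genes above the 40th percentile of all values (5.97) on at least 3 arrays were tested with limma 3.58.1 in R 4.3.3 (lmFit and eBayes, two-sided, genotype only). Exact tests used scipy 1.17.1 and figures matplotlib 3.10.9. On simulated arrays of 13925 genes the fit recovered 4% of genes with a log2 change of 0.25, 50% of those with 0.5 and 100% of those with 1. A far smaller share of genes was changed there than was called in the data, so these shares do not carry over to it. All members are named, and so are called genes of the related lists. Of the fibroblast and endothelial markers examined, only Col1a1 was called, with a fall (-0.63, limma adjusted p = 0.00022). Pdgfra of fibroblasts (0.084) and Pecam1 of endothelium (-0.26) were not called. Members, lists and tests were chosen with earlier results of these data known. The labels do not say whether the replicate numbers pair the mice, and the main fit took them as unpaired. The number of arrays limits the precision.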

Additional observations from a re-analysis of the deposited data

How the results depend on the processing

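Of 787 recomputed differences of single subunit genes 735 kept their side of the threshold, and no called gene changed sign. Settings that changed only the filter, the variance estimate or the block left each difference as it was, as did treat. In those settings the sign could not change. Most of the 735 belong to genes that were not called with all arrays. The genes called with all arrays lost their call in 44 recomputed differences, and 8 differences of other genes gained one. The count of subunit genes that rose, 5 with all arrays, was 3 with no brightness filter, 0 with the replicate block and 0 with treat at a log2 change of 0.2, and 0 to 4 when 1 array was left out. The count that fell, 1 with all arrays, was 2 with an offset of 32, 2 with trended robust variances, 3 with array weights, 0 with the replicate block, 0 with treat, and 0 to 1 when 1 array was left out. At an unadjusted p below 0.05 the limma block fit gave 7 higher and 3 lower, against 17.6% and 18.1% of all tested genes, and treat gave 0 and 0, against 6.61% and 9.62%. Adding Psmc3ip and Psme3ip1 changed neither count. Over all genes, 1676 higher and 1963 lower with all arrays, the block fit gave 1368 and 1742, no filter 1781 and 2191, treat 479 and 799, and 1052 to 1547 were higher when 1 array was left out. Same-numbered mice did not deviate together across genes (r of -0.018, -0.21 and -0.056). This does not exclude a pairing, which the labels do not state, and the block takes up degrees of freedom.

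The mean of both Psmb3 probe sets differed by 0.16 (limma adjusted p = 0.17). The difference of Psma8 was 0.15 with an offset of 32, and the median of the core assembly chaperones was 0.026 with the 60th percentile filter. When 1 array was left out, the median ran from -0.064 to -0.0052 for the cap non-ATPases and from -0.064 to -0.0052 for all cap subunits. On simulated arrays 4% of genes with a log2 change of 0.25 were called. Far fewer genes were changed there than were called in the data, which makes the adjusted threshold stricter. The 4% therefore does not give the share of such differences missed in the data.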
